A study of Mus musculus with 2 samples.

Results

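Heat shock factors and chaperones are described here in early mouse embryos injected with an siRNA that targets Dnmt1, whose product copies DNA methylation after replication. The 10 genes are Hsf1, Hsf2, Hspa1b, Hspa5, Hspa8, Hspa9, Hspd1, Hspe1, Hsp90aa1 and Hsp90ab1. They were taken by gene symbol, whatever their values, and all 10 were found among the 23418 rows of the deposited table. The siDnmt1 library came from 1 pool of 20 siRNA-injected embryos of the C57BL/6 background at the 4 to 8-cell stage. The scrambled library came from 1 pool of 20 embryos of the same background and stage that had been given a control siRNA of scrambled sequence. With 1 library in each group, differences have no replicate check and could not be tested.

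Chaperones bind unfolded or partly folded proteins and help them to reach or regain their shape. HSP70 proteins work in cycles of ATP hydrolysis with J proteins and nucleotide exchange factors, and hand some clients on to HSP90. Heat shock factors are transcription factors that bind repeats of a short element in chaperone promoters. In the mouse, Hsf1 is a maternal factor that early embryos need, and the HSP70 gene pair Hspa1a and Hspa1b is known for transcription at the onset of zygotic genome activation.

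The sequences below show where 3 of the chaperone promoters carry elements of the 2 responses that these genes are best known for. They are from RefSeq on GRCm38.p6, whereas the mm9 build is named in the submitters' processing notes. The RefSeq promoter windows hold 250 bases before and 50 bases after a start site, and 5 of the 10 genes matched one (Hsf2, Hspa1b, Hspa5, Hspd1 and Hspe1). Each sequence runs 5′ to 3′ on the strand of its gene. Capitals mark the letters of a motif match, and positions are counted from the base before the start site (-1). The first is the stretch shared by Hspe1 and Hspd1, which are transcribed away from each other, at chr1:55088055-55088080 on the plus strand, at -93 to -68 of Hspe1. The second is upstream of Hspa1b at chr17:34959239-34959358 on the minus strand, at -120 to -1. The third is at chr2:34772021-34772047 on the plus strand, at -69 to -43 of Hspa5.
Hspe1 and Hspd1: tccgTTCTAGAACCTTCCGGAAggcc
Hspa1b: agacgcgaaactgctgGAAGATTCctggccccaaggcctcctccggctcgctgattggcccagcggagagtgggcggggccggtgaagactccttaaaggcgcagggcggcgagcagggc
Hspa5: ttcaCCAATCGGAGGCCTCCACGacgg

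The heat shock element was searched as GAANNTTC and as TTCNNGAA, each of which reads the same on both strands. GAANNTTC was found in 7.86% and TTCNNGAA in 8.52% of the 32851 windows of the same length. In the stretch between Hspe1 and Hspd1, 1 match of GAANNTTC overlapped 2 matches of TTCNNGAA, so that 18 bases in a row were covered. RefSeq has 2 starts for Hspd1, and the stretch lies upstream of the inner one. The window of the outer start, which lies beyond the Hspe1 start, had 0 matches of either motif. Hspa1b had 1 match of GAANNTTC and 0 of TTCNNGAA, and Hsf2 had 0 of either. In the capitals of Hspa5 is the ER stress element, which was searched as CCAAT followed after 9 further bases by CCACG, on both strands. It was found in 0.119% of all windows. The Hspd1 and Hspe1 windows were rich in CpG, the dinucleotide that Dnmt1 methylates. The Hspe1 window held 36 CpG and both Hspd1 windows held 39, against a median of 7.0 over all windows. The Hspe1 window and that of the inner Hspd1 start share most of their bases, so their CpG are largely the same. Hsf2 had 34, Hspa5 25 and Hspa1b 16. These are letters in a window, and neither methylation nor factor binding was analysed here.

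The libraries held 12236615 (siDnmt1) and 11675483 (scrambled) counts, of which the ribosomal RNA precursor Rn45s took 37.3% and 29.9%. Dnmt1 itself had 687 counts in siDnmt1 and 847 in scrambled and was 1.23-fold lower in siDnmt1, with a 95% interval of 1.11 to 1.37. Of all genes compared below, 38.3% had a log2 ratio as low as that of Dnmt1 (-0.30) or lower. Here and below, folds are plain ratios of counts. Their intervals are exact 95% Clopper-Pearson intervals of counting error, which leave out amplification and differences between pools. All 14 preimplantation embryo markers were detected in at least 1 library, with summed counts of 26205 in siDnmt1 and 24778 in scrambled. Kdm5b had the most (11567 and 8338), and single genes differed more than the sums. Of the 13 compared, 1 lay above 2-fold and 4 below it, beside 12.5% and 16.7% of all genes compared. Carm1 (124 in siDnmt1 and 37 in scrambled) lay above. Dppa4 (991 and 3469), Dppa3 (70 and 194), Dppa5a (8 and 47) and Tfap2c (282 and 577) lay below. The part of these markers in the results was not tested. The oocyte and maternal markers summed to 492 counts in siDnmt1 and 494 in scrambled, but single genes lay on both sides. The median log2 ratio of the 7 compared was 0.72, with Zp1 (2.09-fold) and Tle6 (2.09-fold) the highest in siDnmt1 and Zp3 (3.23-fold) and Nlrp5 (1.36-fold) lower, and its part in the results was not tested. Of 15 cumulus and granulosa markers, 11 were at 0 in both libraries, among them Amh, Fst, Foxl2, Fshr and Has2. The sum of that list was 1732 in siDnmt1 and 1548 in scrambled, with most of it from Nr5a2 (1659 and 1484), which embryos express too. Blood markers summed to 17 and 8 counts, with 7 of 9 at 0 in both. In pooled embryos, fewer cells and less RNA per cell cannot be told apart.

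Among the 10 genes, Hspa8 held most of the counts in both libraries, followed by Hsp90ab1 and Hsp90aa1. The 10 genes held 510633 counts in siDnmt1, which was 6.66% of the library without Rn45s, and 429958 counts or 5.25% in scrambled. Hspa8 alone made up 89.3% of the members' counts in siDnmt1 and 91.5% in scrambled. The other 9 genes summed to 54674 counts in siDnmt1 and 36679 in scrambled. Of the 10 genes, 9 averaged 20 counts or more and were compared, and Hspa1b did not reach that mean. A log2 ratio below is log2((siDnmt1 + 5)/(scrambled + 5)), so that ratios of genes with few counts are pulled toward 0. Every number of genes past 2-fold is counted on this scale. On this scale 2 of the 9 (Hsf2 and Hspa9) were at least 2-fold higher in siDnmt1, beside 12.5% of the 7315 genes compared. Hspe1 alone was at least 2-fold lower, beside 16.7% of all genes compared. These counts of members are small, and their shares lie near those of all genes. The median log2 ratio of the 9 was 0.21, beside -0.025 for all genes compared.

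**Figure D1:**
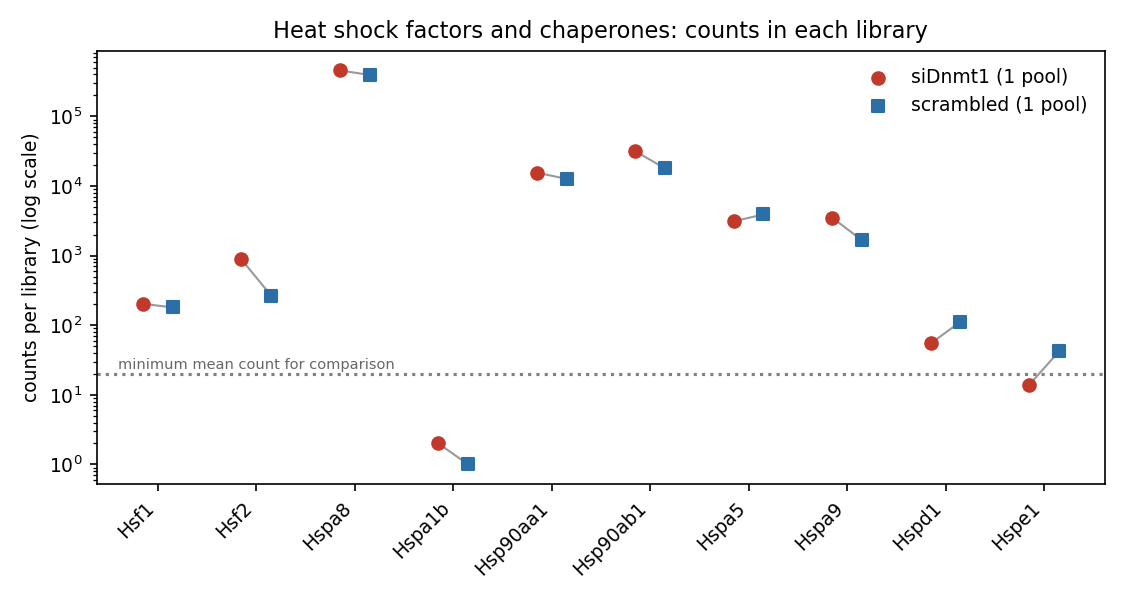
Counts of the 10 genes in the siDnmt1 library (circles) and the scrambled library (squares), 1 pool each, on a log axis; the dotted line is at 20 counts. Hspa8 lies above all others in both libraries (455959 and 393279 counts), Hspa1b has 2 and 1 counts, and Hspd1 and Hspe1 are lower in siDnmt1 while Hspa9 is higher.

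The heat shock factors differed from each other. Hsf2, a factor known for roles in development and gamete formation, had 879 counts in siDnmt1 and 267 in scrambled. That was 3.29-fold higher (2.87 to 3.79), the largest fold upward among the 9 genes, and its log2 ratio of 1.70 was reached by 3.84% of the compared genes. Hsf1, the main factor of the heat shock response, had 203 counts in siDnmt1 and 180 in scrambled, a ratio of 1.13 whose interval (0.918 to 1.39) includes equality. The number of Hsf2 counts per Hsf1 count was 2.92 times as high in siDnmt1 as in scrambled (2.27 to 3.75). Per kilobase of the longest annotated transcript, Hsf2 stood at 3.0 times the level of Hsf1 in siDnmt1 (2.57 to 3.51). In scrambled the ratio was 1.03 (0.847 to 1.25), so that the levels of the pair could not be told apart there. The longest transcripts of Hsf2, Hsf1, Hspa8 and Hspe1 are not annotated as protein-coding in GENCODE M21. With protein-coding transcripts alone the level ratios were 3.50 in siDnmt1 and 1.20 in scrambled. The other factors of the family were almost without counts. Hsf3 and Hsf4 had 0 in both libraries and Hsf5 had 1 in siDnmt1 and 0 in scrambled, and a count of 0, taken as up to 3 counts of the whole library with Rn45s, allows a share of up to 2.45e-05% in siDnmt1 and 2.57e-05% in scrambled.

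Around the factors, a list of genes tied to the HSF family or known to act on HSF1 was examined. Of the 8 of its 15 genes that were compared, 0 lay above 2-fold and 1 below it, with a median log2 ratio of 0.06. For this and the other gene lists, the shares to set beside such counts are 12.5% above and 16.7% below, over all genes compared. The gene past 2-fold was Hdac6, a cytoplasmic deacetylase, with 1060 counts in siDnmt1 and 2299 in scrambled (2.17-fold lower, 2.02 to 2.33). Daxx, a histone chaperone, was next with 51 and 76 counts. Vcp, an ATPase that extracts ubiquitinated proteins, had 12192 counts in siDnmt1 and 7466 in scrambled (1.63-fold higher, 1.59 to 1.68). Mapk8, a stress-activated kinase, had 132 and 111 counts, with an interval of the ratio that includes equality.

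Hspa8 encodes HSC70, the HSP70 that cells make without stress. It had 455959 counts in siDnmt1 and 393279 in scrambled and was 1.16-fold higher (1.15 to 1.16). In both libraries it was the third largest row of the table by counts, and it ranked 2 by counts per kilobase among the 7270 genes compared that have a length. It held 5.94% of the siDnmt1 counts without Rn45s and 4.80% (4.79 to 4.82) of the scrambled counts. Its log2 ratio of 0.21 lay within the middle 50% of all genes compared, which ran from -0.67 to 0.57. Processed copies of HSC70 genes are common in mammalian genomes, and how reads with several matches were counted is not given in the sources used here, so this count is uncertain. Exons of Hspa8 also overlap the small nucleolar RNA genes Snord14c, Snord14d and Snord14e on the same strand.

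The stress-inducible HSP70 genes were close to absent. Hspa1b had 2 counts in siDnmt1 and 1 in scrambled, and its near-identical copy Hspa1a had 1 in each. No difference was detectable at this depth (ratio 2.00 for Hspa1b, interval 0.104 to 118). Reads that match both copies may not have been counted for either, so the levels are uncertain. Small heat shock proteins, which hold unfolded proteins without ATP, were also scarce. Of 10 genes of that list, 7 had 0 counts in both libraries. Of the others, Hspb9 had 0 counts in siDnmt1 and 10 in scrambled, Cryab 0 and 3, and Hspb7 1 and 0. None of that list reached the mean of 20 counts.

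Among the other HSP70 and HSP110 genes, 5 of 11 were compared and all 5 lay within 2-fold, with a median log2 ratio of -0.06. Hspa4, an HSP110-type exchange factor for HSP70, had 11882 counts in siDnmt1 and 17931 in scrambled (1.51-fold lower, 1.47 to 1.54). Hspa2 had 234 and 298 counts and Hsph1, another HSP110, had 362 and 350. Hyou1, the exchange factor of the ER, had 148 counts in siDnmt1 and 115 in scrambled. Of the genes below the mean of 20 counts, named after their values were seen, Hspa1l had 3 counts in siDnmt1 and 34 in scrambled (11.3-fold lower, 3.56 to 57.7). Hspa12a had 7 in siDnmt1 and 22 in scrambled, and Hspa12b 1 and 14. On the other side, Hspa13 had 9 in siDnmt1 and 2 in scrambled, with an interval that includes equality (0.931 to 42.8), and Hspa4l 3 and 0.

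J proteins and other HSP70 partners were the chaperone list with the highest median. Of 33 genes 24 were compared, of which 4 lay above 2-fold and 3 below it, beside 12.5% and 16.7% of all genes compared. The median log2 ratio of the list was 0.37. The extremes upward were Bag4, an exchange factor of the BAG family, with 40 counts in siDnmt1 and 11 in scrambled (3.64-fold higher, 1.83 to 7.86), and the ER membrane J protein gene Dnajc14 with 508 and 210 (2.42-fold higher, 2.06 to 2.85). The others past 2-fold, named after their values were seen, were Dnajc16 (2.31-fold higher) and Dnaja2, a main cytosolic J protein for HSC70 (2.04-fold higher). Dnajc24, which takes part in diphthamide synthesis, had 10 counts in siDnmt1 and 51 in scrambled (5.10-fold lower, 2.56 to 11.3). St13, which encodes the HSP70-interacting protein HIP, had 32 and 76 counts (2.38-fold lower), and Dnajc8, also named after its value was seen, 122 and 272 (2.23-fold lower). Dnajb1, the J protein gene best known for heat induction, had 105 counts in siDnmt1 and 71 in scrambled, and Dnaja1 had 626 and 1053. The J protein genes thus lay on both sides of equality, as these examples, chosen after their values were seen, show.

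Both cytosolic HSP90 genes had more counts in siDnmt1. Hsp90ab1, the constitutive form, had 31447 counts in siDnmt1 and 17866 in scrambled (1.76-fold higher, 1.73 to 1.79). Hsp90aa1, the form with the stronger heat induction, had 15473 in siDnmt1 and 12655 in scrambled (1.22-fold higher, 1.19 to 1.25). Neither reached 2-fold, and the log2 ratios of 0.82 for Hsp90ab1 and 0.29 for Hsp90aa1 were reached by 17.1% and 36.2% of the compared genes. Per kilobase, Hsp90ab1 stood at 2.65 times the level of Hsp90aa1 in siDnmt1 (2.60 to 2.70) and at 1.84 times in scrambled (1.80 to 1.88). The ratio of the pair was therefore 1.44 times as high in siDnmt1 (1.40 to 1.48), beyond counting error.

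The HSP90 cochaperones lay on both sides of equality, with 17 of those compared within 2-fold. Of 23 genes 20 were compared, of which 0 lay above 2-fold and 3 below it, with a median log2 ratio of 0.01. Stip1, which encodes the adaptor HOP between HSP70 and HSP90, was the highest, with 4586 counts in siDnmt1 and 2374 in scrambled (1.93-fold higher, 1.84 to 2.03). Tsc1 followed with 2064 and 1110 (1.86-fold higher). Aarsd1 had 7 counts in siDnmt1 and 105 in scrambled (15-fold lower, 7.03 to 38.2), and Tomm34, an adaptor with binding repeats for HSP70 and HSP90, had 67 and 276 (4.12-fold lower, 3.14 to 5.46). The remaining gene past 2-fold was Nudc with 56 and 157 counts (2.80-fold lower), named after its value was seen. The most abundant cochaperone, also singled out after its value was seen, was the immunophilin Fkbp4 with 80416 counts in siDnmt1 and 75703 in scrambled (1.06-fold higher). It ranked 10 and 9 among all rows by counts. Cdc37, the adaptor that brings kinases to HSP90, had 13676 and 12938 counts.

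**Figure D2:**
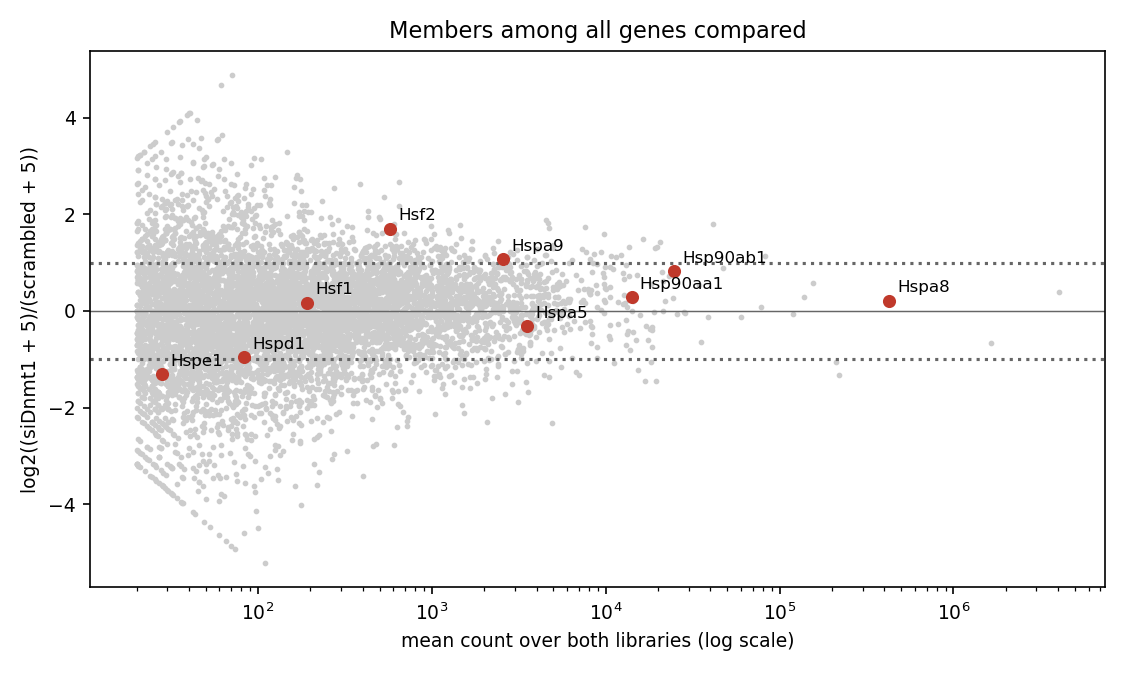
Log2 ratio (siDnmt1 over scrambled, pseudocount 5) against the mean count over both libraries (log axis) for the 7315 genes compared (grey) and the 9 members compared (red); dotted lines mark 2-fold. Hsf2 and Hspa9 lie above the upper line and Hspe1 below the lower one, at a depth where grey points spread widely.

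The 3 mitochondrial chaperones lay on both sides of equality. Hspa9 encodes mortalin, the matrix HSP70 that pulls in and folds imported proteins. It had 3484 counts in siDnmt1 and 1661 in scrambled and was 2.10-fold higher (1.98 to 2.23), with a log2 ratio of 1.07 that 11.1% of all genes compared reached. Hspd1 and Hspe1 encode HSP60 and HSP10, the barrel and the lid of the matrix chaperonin that receives proteins after mortalin. Hspd1 had 55 counts in siDnmt1 and 112 in scrambled, 2.04-fold lower (1.46 to 2.87). Its log2 ratio of -0.96 fell short of the 2-fold line because of the pseudocount. Hspe1 had 14 counts in siDnmt1 and 42 in scrambled and was 3.0-fold lower (1.61 to 5.95), with a log2 ratio of -1.31.

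The partners of the chaperonin thus lay on the same side, and mortalin lay on the other. The ratio of Hspd1 to Hspe1 counts was 1.47 times as high in siDnmt1 as in scrambled, with an interval (0.714 to 3.17) that includes equality. The ratio of Hspa9 to Hspd1 was 4.27 times as high (3.05 to 6.04) and that of Hspa9 to Hspe1 6.29 times as high (3.36 to 12.5). These pairs with Hspa9 were not fixed beforehand. They set a gene that was higher against genes that were lower, so intervals away from equality follow from the choice and add no evidence. Per kilobase, Hspa9 stood at 50.3 times the level of Hspd1 in siDnmt1 and at 11.8 times in scrambled. Hspd1 and Hspe1 overlap head to head over 112 exonic bases in GENCODE M21 and the strand setting is not known, so reads there cannot be assigned to either. Processed copies of the chaperonin and HSP90 genes also exist, which makes their counts uncertain in the way given for Hspa8. At the depth of Hspe1, with mean counts from 20 up to 50, 26.8% of 1769 genes were at least 2-fold lower in siDnmt1. At the depth of Hspa9, with means from 1000 up to 10000, 7.38% of 908 genes were at least 2-fold higher.

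Over all compared genes with a length, the log2 ratio varied with transcript length. The longest Hspe1 transcript has 964 nt, and the 139 compared genes under 1000 nt had a median log2 ratio of -1.29. The median was -0.57 for 875 genes from 1000 up to 2000 nt, -0.06 for 2931 genes from 2000 up to 4000 nt and 0.16 for 3325 longer genes. After the trend with length was removed, the log2 ratio of Hspe1 was -0.22 and it was no longer past 2-fold. That of Hspd1, with 2423 nt, was -0.81, and those of Hspa9 and Hsf2 were 1.12 and 1.59. Among the genes of the chaperone lists described here that lay past 2-fold, Dnajc8 (-0.76), Nudc (-0.64), Manf (-0.98), Hmox1 (-0.82) and Canx (0.99), as well as Hscb and Clpp, were within 2-fold on the log2 scale without the trend. In the other direction, Stip1 (1.19) and Sugt1 (-1.04), both HSP90 cochaperones, were past 2-fold without it. The part of transcript length in these ratios was not tested further.

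**Figure D3:**
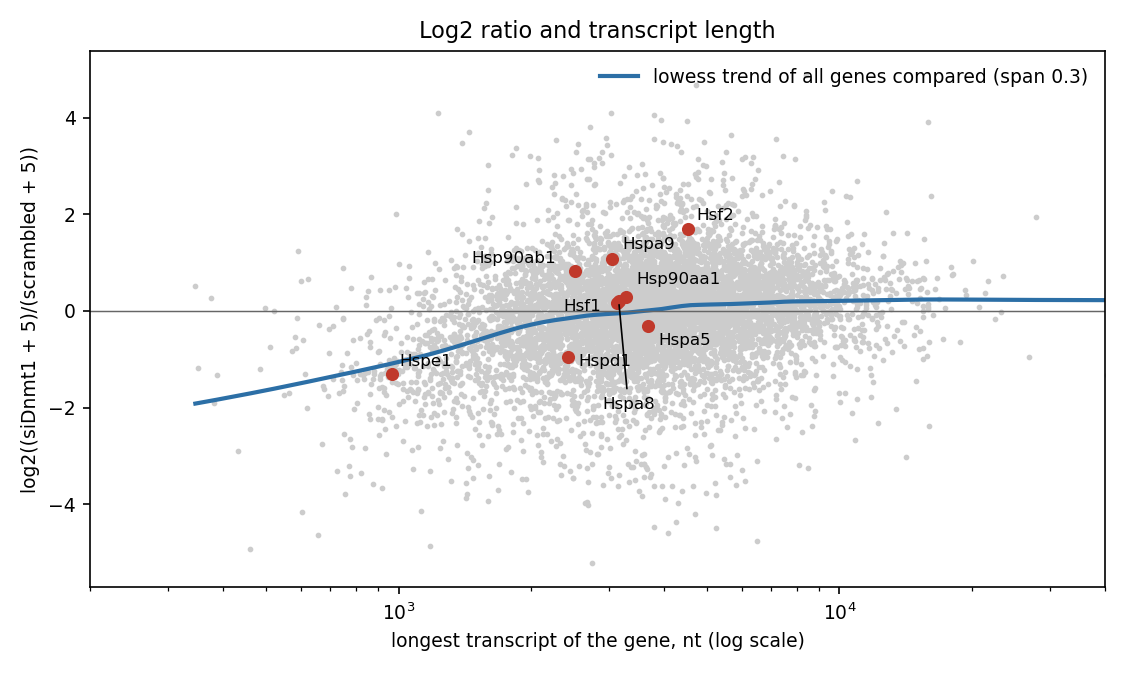
Log2 ratio (siDnmt1 over scrambled, pseudocount 5) against the longest annotated transcript in nt (log axis) for the compared genes with a length (grey) and the members (red), with the lowess trend (blue). Hspe1, at 964 nt, lies close to the trend, whereas Hspd1 lies below it and Hsf2, Hspa9 and Hsp90ab1 above it.

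Of the other mitochondrial chaperones and proteases, 15 of 17 genes in the table were compared. Of these, 0 lay above 2-fold and 2 below it, with a median log2 ratio of -0.38, the lowest of the chaperone lists. Hscb, a J protein of iron-sulphur cluster assembly, had 12 counts in siDnmt1 and 41 in scrambled (3.42-fold lower, 1.76 to 7.14). Clpp, a matrix protease, had 80 and 212 (2.65-fold lower, 2.04 to 3.47). Both have transcripts under 1000 nt, and without the length trend their log2 ratios were -0.19 and -0.28. Clpb, a disaggregase, had 29 counts in siDnmt1 and 13 in scrambled (2.23-fold higher, 1.12 to 4.67), inside 2-fold on the log2 scale at 0.92, and the inner membrane protease gene Yme1l1 had 203 and 142 (1.43-fold higher, 1.15 to 1.78). Singled out after its values were seen, Trap1, the mitochondrial HSP90, had 357 and 375 counts. Grpel1, an exchange factor of mortalin, had 89 counts in siDnmt1 and 146 in scrambled (1.64-fold lower, 1.25 to 2.16), on the other side of equality from Hspa9. Grpel2, another such factor, had 92 and 83 counts, and the mitochondrial J protein gene Dnaja3 had 71 and 63. Both lay on the side of Hspa9, with intervals of the ratio that include equality (0.815 to 1.51 and 0.791 to 1.61).

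Hspa5 encodes BiP, the HSP70 of the ER, whose promoter element is printed above. It had 3117 counts in siDnmt1 and 3895 in scrambled and was 1.25-fold lower (1.19 to 1.31). Its log2 ratio of -0.32 was inside the middle 50% of all genes compared. Hsp90b1, the HSP90 of the ER, had 483 and 710 counts (1.47-fold lower, 1.31 to 1.65). It was singled out after its value was seen. Other ER chaperone genes, also named after their values were seen, lay on both sides. Pdia3 (4420 in siDnmt1 and 2496 in scrambled) and Calr (7653 and 6718) were higher, and Pdia6 (52 and 103) was lower. By counts per kilobase Hspa5 stood below Hspa9 in siDnmt1 (849 and 1143) and above it in scrambled (1061 and 545).

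The list of ER chaperones and unfolded protein response genes held 31 others in the table, of which 24 were compared. Of these, 2 lay above 2-fold and 1 below it, with a median log2 ratio of -0.09. Ppp1r15b, a phosphatase subunit that relieves the block of translation, had 867 counts in siDnmt1 and 361 in scrambled (2.40-fold higher, 2.12 to 2.72). Canx, the membrane lectin chaperone calnexin, had 11029 and 5235 (2.11-fold higher, 2.04 to 2.18). Manf, an ER protein that rises with ER stress, had 15 counts in siDnmt1 and 40 in scrambled (2.67-fold lower, 1.44 to 5.20). Atf6b, a relative of the stress sensor ATF6, had 113 and 230 (2.04-fold lower), inside 2-fold on the log2 scale with its pseudocount. For the stress sensors themselves, named after their values were seen, Atf6 had 2540 counts in siDnmt1 and 1498 in scrambled, Ern1 604 and 598, and Eif2ak3 364 and 303. Xbp1 and Ddit3, which act below them, had 10 and 7 counts in siDnmt1 and 12 and 18 in scrambled, too few to be compared.

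Genes known as targets of HSF1 after heat were examined as a list that holds 6 of the 10 members. Of its 17 others, 10 were compared. The median log2 ratio of these was 0.07. Stip1, given above among the HSP90 cochaperones, was 1.93-fold higher. Ubb, which encodes ubiquitin, had 1473 counts in siDnmt1 and 2545 in scrambled (1.73-fold lower, 1.62 to 1.84). Hmox1, heme oxygenase, had 12 counts in siDnmt1 and 39 in scrambled (3.25-fold lower, 1.67 to 6.82). The targets lay on both sides of equality. Hspa1a, Hspa1b and Hspb1 were at or near 0 in both libraries, though reads shared by Hspa1a and Hspa1b may not have been counted. Other genes given above for heat induction were not near 0. Dnajb1 had 105 counts in siDnmt1 and 71 in scrambled, and Hsp90aa1 15473 and 12655.

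**Figure D4:**
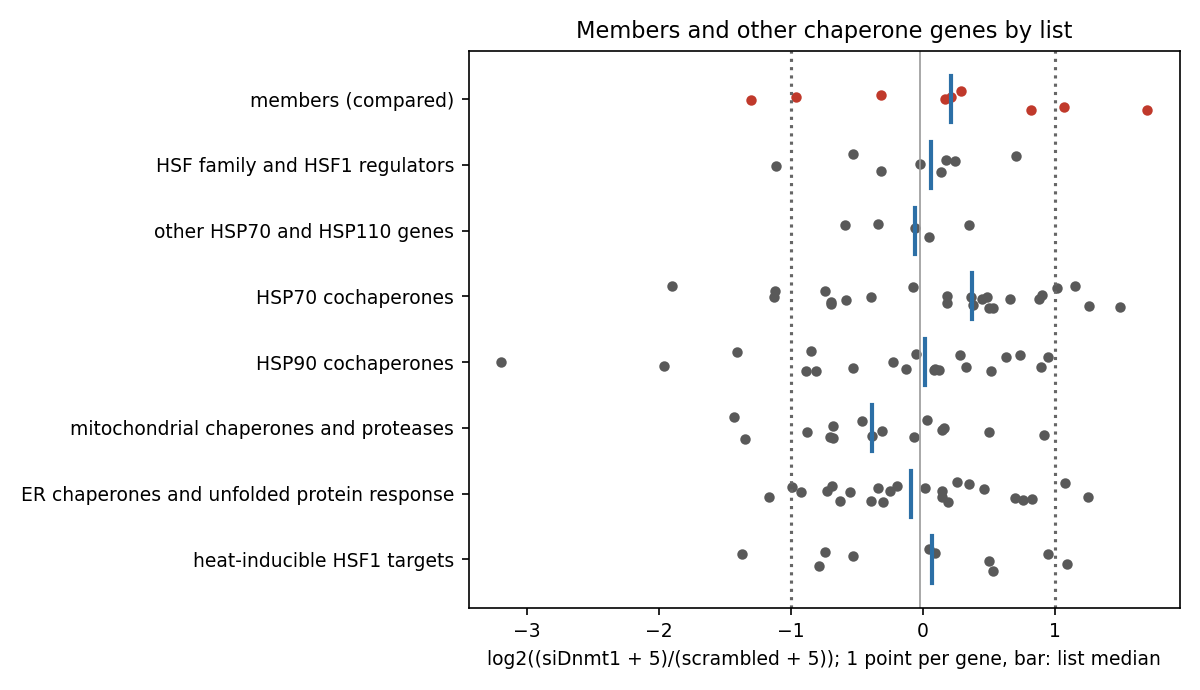
Log2 ratios (siDnmt1 over scrambled, pseudocount 5) of the 9 members compared (red) and of the other compared genes of each chaperone list (grey), 1 point per gene; blue bars are medians, dotted lines mark 2-fold and the grey line the median of all genes compared. List medians run from -0.38 (mitochondrial) to 0.37 (HSP70 cochaperones), and small heat shock proteins are not drawn because none was compared.

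By level per kilobase of the longest transcript, the members kept nearly the same order in both libraries. In siDnmt1 the levels were 144382 counts per kilobase for Hspa8, 12479 for Hsp90ab1, 4716 for Hsp90aa1, 1143 for Hspa9 and 849 for Hspa5. They were 194 for Hsf2, 64.8 for Hsf1, 22.7 for Hspd1, 14.5 for Hspe1 and 0.714 for Hspa1b. In scrambled the levels were 124534 for Hspa8, 7090 for Hsp90ab1, 3857 for Hsp90aa1, 1061 for Hspa5 and 545 for Hspa9. They were 59 for Hsf2, 57.5 for Hsf1, 46.2 for Hspd1, 43.6 for Hspe1 and 0.357 for Hspa1b. The exchange of Hspa5 and Hspa9 was the single change in order. Within counting error, Hspd1 could not be told from Hspe1 in siDnmt1 (ratio 1.56, 0.857 to 3.04). In scrambled, Hsf2 could not be told from Hsf1, Hsf1 from Hspd1 (ratio 1.24, 0.976 to 1.59), or Hspd1 from Hspe1 (ratio 1.06, 0.738 to 1.55). With protein-coding transcripts alone, Hspe1 stood above Hspd1 in scrambled (54.3 and 46.2), still within counting error. Hsf1 then stood at 1.85 times the level of Hspd1 in scrambled (1.45 to 2.36), beyond counting error, so that this order depends on the transcript used.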

How the data were processed

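RNA was measured in 2 libraries, 1 per group. Poly-A RNA was isolated with a bead kit, copied into tagged cDNA with pico-profiling primers, amplified by 20 PCR cycles and read from both ends, per the labels' protocols. The authors deposited 1 table of counts per gene, described as DESeq2-normalised. Trim Galore, HISAT2, HTSeq, DESeq2 and mm9 are named in the submitters' processing notes, without versions, annotation or strand setting. Size factors recomputed with DESeq2 1.42.0 were 1 in both columns, which a table that was already normalised would give too. In either column 0 whole numbers from 1 to 59 were skipped, so the values were used unscaled. A scale factor near 1 or a strong downscaling would not show in this check. If the values had been scaled, the intervals of counting error would not hold.

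Genes averaging 20 counts or more were compared. With 1 library per group neither the edgeR nor the DESeq2 test can be fitted, so no p-value is given. Intervals and the floor of 3 counts cover counting error only, since PCR copies are not independent molecules. The members, 8 chaperone lists, 4 marker lists and the naming rule were chosen with earlier results of these data known. The rule names all members, Dnmt1, Rn45s, Hspa1a and the 2 highest and 2 lowest compared genes of each chaperone list other than the members. A gene of the HSF1 target list that the rule names is not reported here. Lengths are the longest GENCODE M21 transcript per symbol, found for 7270 of 7315 genes. A lowess curve (span 0.3) gave the length trend. Alternatives were 2 other pseudocounts, 2 other filters, 5 scalings, the length trend and a 4-fold threshold; protein-coding transcript lengths were added after the data were seen. TMM factors came from edgeR 4.0.16 in R 4.3.3, the lowess curve from statsmodels 0.14.6 and the intervals from scipy 1.17.1 in Python 3.11.15.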

Additional observations from a re-analysis of the deposited data

How the results depend on the processing

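Each of the 9 compared members kept its sign under all alternatives that gave it a value. The other pseudocounts and filters cannot change the sign of a ratio, and scaling by DESeq2 size factors of 1 changed nothing. Only the other scalings and the removal of the length trend could have changed it. Hsf2 (log2 ratio 1.59 to 1.79) stayed past 2-fold under all of them. Hspa9 (1.0 to 1.16) was just under it with equal totals, where 1 member was at least 2-fold higher. Hspe1 ranged from -1.52 to -0.22 and Hspd1 from -1.03 to -0.81. The number of members at least 2-fold lower was 2 with a pseudocount of 1 or with equal totals, where Hspd1 joined Hspe1. It was 0 with a pseudocount of 20, a mean of at least 100 counts (neither gene was compared), the length trend removed or a 4-fold threshold, under which the number higher was 0 too.

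The median log2 ratio of the members was 0.29 with a mean of at least 100 counts, 0.15 with equal totals, 0.31 with equal totals without Rn45s, 0.24 with a median of 0 over all genes, 0.23 with TMM factors and 0.26 without the length trend. That of the HSP90 cochaperones was 0.08 with no filter or with a mean of at least 100 counts, -0.05 with equal totals, 0.10 without Rn45s and 0.07 without the length trend. That of the HSF1 targets was 0.00 with equal totals, 0.16 without Rn45s and 0.09 with a median of 0 or TMM factors. Medians near 0 changed sign in 4 lists: the HSP90 cochaperones as given, the HSF family (-0.01 with equal totals, -0.10 without the length trend), the other HSP70 genes (0.03 without Rn45s) and the ER list (0.14 with a mean of at least 100 counts, 0.02 without the length trend). That of the HSP70 cochaperones was 0.18 with no filter. Over all genes, 1682 were higher and 2122 lower without the filter, 395 and 482 at a mean of 100, and 193 and 330 at 4-fold. No paired analysis was possible because each group has 1 library, and for the same reason no replicate could be left out.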
